A study of Homo sapiens with 3 samples.

Results

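Genes of type I interferon and nucleic acid sensing were followed through a pooled CRISPR knockout screen, out of 20381 genes whose single guide RNAs (sgRNAs) were seen. The 10 members are IFNAR1, IFNAR2, TYK2, STAT2, IRF9, TMEM173 (current symbol STING1), MB21D1 (current symbol CGAS), MAVS, IRF3 and ADAR. Every sgRNA whose library name starts with the symbol and an Ensembl gene identifier was taken, which gave 93 of 200682 sgRNAs. The rule used gene names and pathway, and no value of the screen, but the pathway was chosen with earlier results of the screen known.

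The screen was made in K562, an established human leukaemia line with little MHC class I (MHC-I) at its surface, and the question was which genes alter MHC-I when they are lost. All 3 libraries came from K562 cells that expressed Cas9 and were infected with the genome-wide Bassik knockout library at a multiplicity of 0.3, with puromycin (1 μg/mL) applied 48 h after infection and kept for 72 h. The HLA-B high sorted cells had been given 1 ng/mL interferon-γ (IFN-γ) 24 h ahead of sorting and were sorted with an HLA-B antibody on days 18 and 25. The high-screen control (the high pool) was the unsorted pool of that screen, and the low-screen control (the low pool) was the unsorted pool of a screen for low MHC-I with 25 ng/mL IFN-γ and sorts on days 7 and 15. The day on which each unsorted pool was harvested is not given in the labels, nor whether the pools themselves received IFN-γ. For the low pool the sources are at odds over which antibody its screen used. Each group was 1 library, so differences have no replicate check, and the sorted library had passed through 2 sorts that its controls had not.

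Type I interferons bind a receptor of the subunits IFNAR1 and IFNAR2. The receptor works through the kinases TYK2 and JAK1 and the complex ISGF3, which holds STAT2 and IRF9 and switches on interferon-stimulated genes, among them those of MHC-I. Cells make type I interferon after cGAS (MB21D1) and STING (TMEM173) sense cytosolic DNA or after RIG-I-like receptors and their adaptor MAVS sense RNA, and both routes activate the transcription factor IRF3. ADAR edits double-stranded RNA and so keeps the cell's own RNA from being sensed. IFN-γ, the cytokine used in the screen, signals through a receptor of its own, without IFNAR1, IFNAR2, TYK2 or IRF9 in its core pathway.

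The sorted library held 34266318 matched reads, the high pool 22562241 and the low pool 98426251. Only 49.6% of all sgRNAs were listed in the sorted library, against 97.7% in the high pool and 93.4% in the low pool. For the 10 genes the numbers were 42 of 93 sgRNAs in the sorted library (45.2%, exact 95% interval 34.8 to 55.8%), 92 in the high pool (98.9%) and 89 in the low pool (95.7%). Their reads summed to 333 CPM (reads scaled to a common library depth) in the sorted library, 383 CPM in the high pool and 430 CPM in the low pool. For scale, SOCS1, an inhibitor of cytokine receptor signalling, and EZH2, the H3K27 methyltransferase of PRC2, had median log2 ratios of 3.44 and 5.28 in sorted over high pool. Intervals and folds given for single sgRNAs cover counting error only, since the reads are PCR reads without molecular identifiers. The annotation places all 10 genes as protein-coding in GRCh37.

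None of the 10 genes was called enriched or depleted in the HLA-B high sort. The log2 ratio of each sgRNA (sorted over high pool, scaled to depth, with a pseudocount of 1 read) was taken for the 85 member sgRNAs that reached 10 reads in the high pool. Of these, 8 lay above a log2 ratio of 1 (9.41%, exact interval 4.15 to 17.7%), against 12.6% of all gene-targeting sgRNAs. Scaled by the median of ratios instead of total reads, the share above 1 was 20.0% against 17.0%, so its side of the background depended on the scaling. Below -1 lay 57 (67.1%, 56.0 to 76.9%), against 70.8% of all gene-targeting sgRNAs and 71.5% of safe-targeting sgRNAs, which cut sites of no known function. Both member shares were thus near the background. The median over all gene-targeting sgRNAs was -4.64, a value that depends on the pseudocount. As 70.8% of them lay below -1, most sgRNAs were scarcer after the sorts. Genes were scored by redundant siRNA activity (RSA), which asks whether a gene's sgRNAs lie together near one end of the ranking of all sgRNAs, and were called where the RSA p was below 0.001 and 4 or more sgRNAs stood behind it. The calls made up 0.31% of 20314 tested genes for enrichment and 0.418% for depletion, against 0 of 10 members in each direction. Of the gene-targeting sgRNAs tested, 48.5% had 0 sorted reads, and their order in the depletion ranking is set by the high-pool reads and the pseudocount. RSA p-values compare sgRNAs within these 2 libraries and not the conditions. They were below 0.05 in 14.0% of all genes for enrichment and 22.7% for depletion, against 0 and 3 of the 10 members.

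The median over the 10 gene medians was -3.95, against -4.54 over all genes tested. For TYK2 (-6.58), IFNAR2 (-6.23), IFNAR1 (-5.50), IRF9 (-4.56), MB21D1 (-4.01) and MAVS (-3.89) the middle sgRNAs had 0 sorted reads. Such a median is not a measured ratio: its value is set by the pseudocount and by the reads in the high pool, and with a pseudocount of 5 reads TYK2 stood at -4.31 and IFNAR1 at -3.30. The same holds for other genes whose middle sgRNAs were absent from the sort. IRF3 (-3.71), TMEM173 (-2.92) and ADAR (-2.85) had 1 of their 2 middle sgRNAs at 0, and the middle sgRNA of STAT2 (-2.16) had 15 sorted reads. No order is read from these medians. STAT2 was highest in the main setting, but ADAR was higher with a minimum of 50 reads (-0.61 for ADAR and -1.87 for STAT2) or a pseudocount of 5 (-1.76 and -1.88), and TMEM173 with no minimum (-2.20 and -2.63). The sgRNAs of a gene spread with an SD of 2.62 to 4.07 on the same log2 scale. The counts by role that follow used the main scaling only. The 5 genes of the receptor arm (IFNAR1, IFNAR2, TYK2, STAT2 and IRF9) had 4 of 39 sgRNAs above 1 (10.3%, exact interval 2.87 to 24.2%) and 28 below -1 (71.8%, 55.1 to 85.0%). The 5 genes of sensing and editing had 4 of 46 above 1 (8.70%, 2.42 to 20.8%) and 29 below -1 (63.0%, 47.5 to 76.8%). The intervals of the receptor arm and of sensing and editing overlapped in both directions. They treat sgRNAs as independent although those of 1 gene share their target, so a difference between the role groups was not tested.

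**Figure D1:**
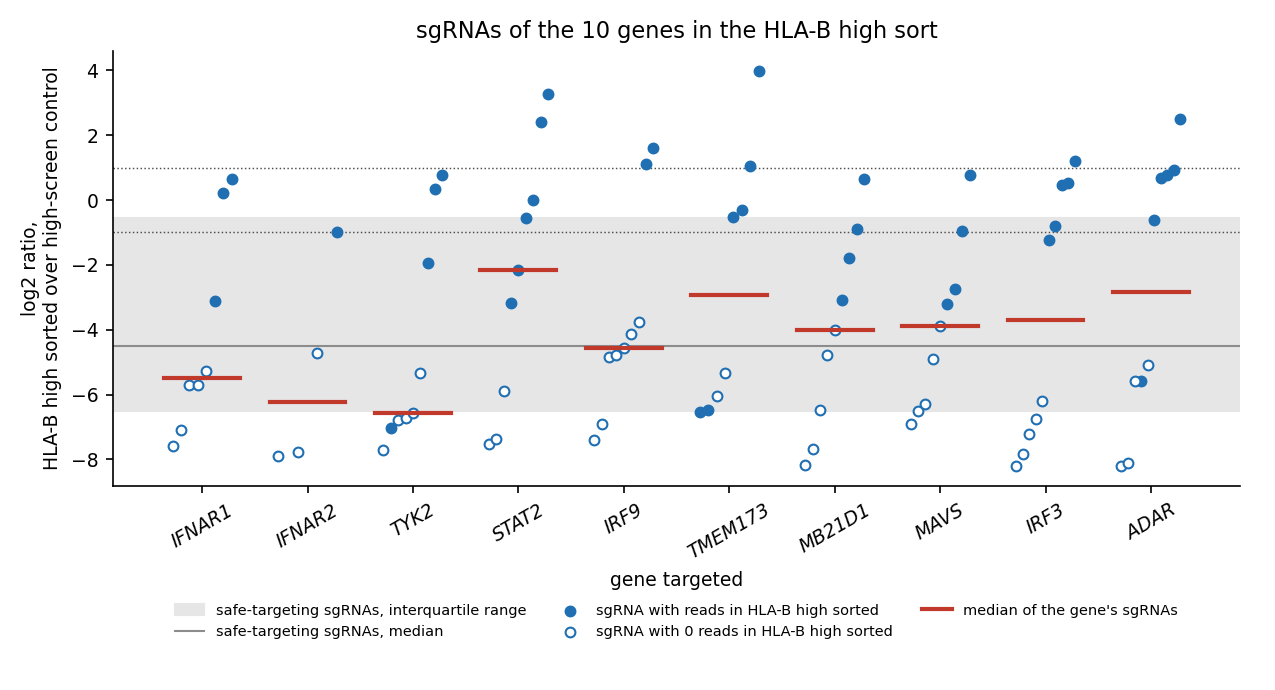
Log2 ratio of each member sgRNA in HLA-B high sorted over high-screen control (vertical axis), by gene. Filled points had reads in the sorted library, open points had 0, red bars are gene medians, the grey band and line are the interquartile range and median of safe-targeting sgRNAs, and dotted lines mark 1 and -1. Most genes split into sgRNAs absent from the sort and a few near or above 0, and 6 gene medians fall on sgRNAs with 0 sorted reads, where the height is set by the pseudocount and the high-pool reads.

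The receptor subunits and TYK2 had no sgRNA above 1. IFNAR1 (ENSG00000142166, chromosome 21, 34696692 to 34732170) binds type I interferon together with IFNAR2. Its 10 sgRNAs summed to 6.45 CPM in the sorted library, 26.5 CPM in the high pool and 55.2 CPM in the low pool. Per sgRNA the lowest, median and highest reads were 0, 0 and 133 in the sorted library, 0, 41 and 152 in the high pool and 236, 555.5 and 931 in the low pool. Only 3 of the 10 were listed after sorting. In the comparison with the high pool 8 sgRNAs could be tested, of which 0 lay above 1 and 6 below -1. The highest, sgRNA 5 (numbers are those of the library names), had 133 reads in the sorted library and 55 in the high pool, a depth-scaled fold of 1.59 (exact 95% interval 1.15 to 2.22), and made up 60.2% of what IFNAR1 had in the sort. The lowest, sgRNA 6, had 0 sorted reads and 152 in the high pool. It was thus at least 76.95-fold lower, taking 3 reads as the limit of a count of 0 and the 152 as counted.

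IFNAR2 (ENSG00000159110, chromosome 21, 34577587 to 34637980) is the subunit that binds interferon more tightly. Only 4 of its sgRNAs were seen in any library, so it rests on the fewest sgRNAs of the 10. sgRNAs 1, 3, 6 and 7 had 0, 180, 0 and 0 reads in the sorted library, 189, 236, 171 and 20 in the high pool, and 716, 544, 437 and 426 in the low pool. Thus sgRNA 3 held 100.0% of the sorted reads, at 5.25 CPM in the sorted library and 10.5 CPM in the high pool. The lowest, sgRNA 1, was at least 95.7-fold lower after the sort. The RSA p for depletion was 0.0212 (rank 2391 of 20314 genes), which became 0.180 after Benjamini-Hochberg adjustment over all genes. This p was given by sgRNAs with 0 sorted reads, so it was set by their high-pool reads and the pseudocount.

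TYK2 (ENSG00000105397, chromosome 19, 10461209 to 10491284) is the kinase held by IFNAR1. Its 9 sgRNAs summed to 14.1 CPM in the sorted library, 38.6 CPM in the high pool and 46.8 CPM in the low pool. Per sgRNA the lowest, median and highest reads were 0, 0 and 328 in the sorted library, 31, 83 and 190 in the high pool and 142, 560 and 914 in the low pool. All 9 were present in both unsorted pools, while 5 were absent from the sorted library. None lay above 1 and 7 lay below -1. The RSA p for depletion was 0.0459 (rank 4345), or 0.214 after adjustment, and was given mostly by sgRNAs with 0 sorted reads. The highest, sgRNA 3, had 328 sorted reads and 126 in the high pool (fold 1.71, 1.39 to 2.12) and held 67.8% of the gene's sorted reads, whereas sgRNA 10 had 0 and 166 and was at least 84.0-fold lower.

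STAT2 and IRF9, the ISGF3 subunits particular to interferons of type I and III, each had 2 sgRNAs above 1 and 5 or more below -1. STAT2 (ENSG00000170581, chromosome 12, 56735381 to 56753987) summed to 115 CPM in the sorted library, 45.1 CPM in the high pool and 32.3 CPM in the low pool. Its sgRNA 7 had 2687 reads in the sorted library, 182 in the high pool and 633 in the low pool. That sgRNA was 9.72-fold higher after sorting (8.36 to 11.4) and alone gave 68.1% of the gene's reads in the sort. The next, sgRNA 1, had 974 reads in the sorted library and 121 in the high pool, and was not listed in the low pool. Of the 9 sgRNAs tested 2 lay above 1 and 5 below -1, and the lowest, sgRNA 10, had 0 sorted reads and 146 in the high pool. The sum and the median thus differed in sign, with a log2 ratio of 1.35 for summed reads and a median of -2.16. The RSA p for enrichment was 0.0599 (rank 3233 of 20314), or 0.376 after adjustment.

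IRF9 (ENSG00000213928, chromosome 14, 24630443 to 24637252) is the DNA-binding subunit of ISGF3. It summed to 26.9 CPM in the sorted library, 23.3 CPM in the high pool and 34.5 CPM in the low pool. Only sgRNAs 6 and 5 were listed after sorting. sgRNA 6 had 807 reads in the sorted library, 176 in the high pool and 372 in the low pool, a fold of 3.02 over the high pool (2.56 to 3.57), and held 87.6% of the sorted reads. sgRNA 5 had 114, 34 and 486 reads in the same order of libraries. The other 7 tested had 0 sorted reads and lay below -1. The lowest, sgRNA 10, was at least 66.8-fold lower, and the RSA p for enrichment was 0.286.

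**Figure D2:**
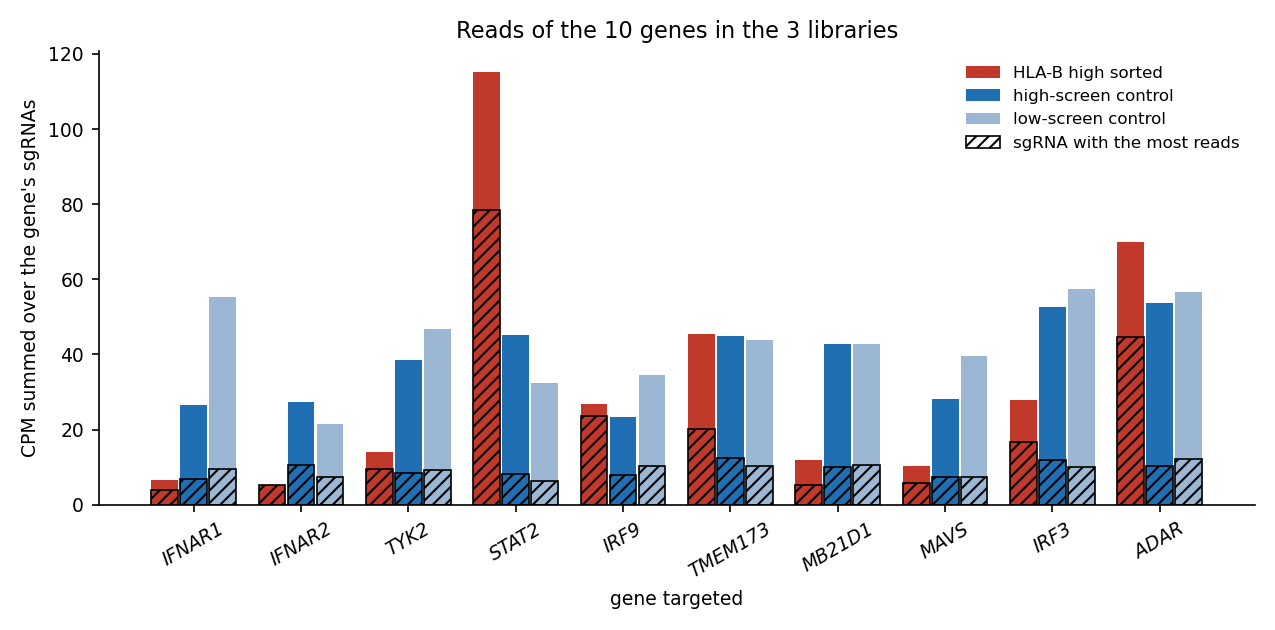
CPM summed over the sgRNAs of each gene (vertical axis) in the HLA-B high sorted library, the high-screen control and the low-screen control, with the hatched part from the sgRNA that had the most reads in that library. STAT2 reached 115 CPM in the sorted library, of which 1 sgRNA gave 68.1%, while in the unsorted pools the top sgRNA of each gene gave at most 38.3%.

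In DNA sensing, the summed level of TMEM173 after the sort was close to that of the pools, while that of MB21D1 was below them. TMEM173 (ENSG00000184584, chromosome 5, 138855118 to 138862520) encodes STING, the adaptor of the endoplasmic reticulum that binds cyclic dinucleotides. It summed to 45.4 CPM in the sorted library, 45.0 CPM in the high pool and 43.8 CPM in the low pool. The level summed over sgRNAs was thus nearly the same in all 3 libraries, but it came from different sgRNAs. sgRNA 1 had the highest log2 ratio of all member sgRNAs, 3.99, with 695 sorted reads and 28 in the high pool (fold 16.3, 11.2 to 24.8). In the low pool it had 419 reads. sgRNA 6, the lowest, had 1 sorted read and 135 in the high pool. Of 8 sgRNAs tested 2 lay above 1 and 4 below -1, and the RSA p for enrichment, 0.0683, was given by sgRNA 1 alone.

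MB21D1 (ENSG00000164430, chromosome 6, 74123238 to 74162020) encodes cGAS, which makes the dinucleotide that STING binds. It summed to 11.9 CPM in the sorted library, 42.8 CPM in the high pool and 42.9 CPM in the low pool. Per sgRNA the lowest, median and highest reads were 0, 3 and 181 in the sorted library, 1, 73 and 229 in the high pool and 0, 370.5 and 1041 in the low pool. None of its 9 tested sgRNAs lay above 1 and 7 lay below -1. The highest, sgRNA 6, had a fold of 1.57 (1.19 to 2.08), and the lowest, sgRNA 7, had 0 sorted reads against 229 in the high pool and was at least 115.9-fold lower. The RSA p was 0.778 for enrichment and 0.127 for depletion.

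MAVS (ENSG00000088888, chromosome 20, 3827446 to 3856770), the mitochondrial adaptor of RNA sensing, had no sgRNA above 1, as for MB21D1. It summed to 10.2 CPM in the sorted library, 28.2 CPM in the high pool and 39.5 CPM in the low pool. Of its 9 tested sgRNAs 7 lay below -1. sgRNA 5 was the highest, with 197 sorted reads and 75 in the high pool (fold 1.73, 1.32 to 2.29), and held 56.3% of the sorted reads. sgRNA 7 was the lowest, with 0 and 95 reads, at least 48.1-fold lower. The RSA p was 0.750 for enrichment and 0.214 for depletion.

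IRF3 (ENSG00000126456, chromosome 19, 50162826 to 50169132), the transcription factor that both sensing routes activate, divided evenly. Its 10 sgRNAs summed to 27.8 CPM in the sorted library, 52.7 CPM in the high pool and 57.4 CPM in the low pool. In the sort 5 had reads and 5 had none, although all 10 were listed in each unsorted pool. The highest ratio was that of sgRNA 4, with 97 sorted reads and 27 in the high pool (fold 2.37, 1.53 to 3.77), the only one above 1. sgRNA 2 held 60.4% of the sorted reads, with 576 reads against 266 in the high pool (fold 1.43, 1.23 to 1.66). The lowest, sgRNA 1, had 0 and 234 reads and was at least 118.5-fold lower. The RSA p was 0.229 for enrichment and 0.0963 for depletion.

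ADAR (ENSG00000160710, chromosome 1, 154554171 to 154600489), the editor of double-stranded RNA, had the smallest RSA p for enrichment among the 10 and a small one for depletion as well. It summed to 69.9 CPM in the sorted library, 53.6 CPM in the high pool and 56.5 CPM in the low pool. sgRNA 8 had 1532 reads in the sorted library, 179 in the high pool and 785 in the low pool (fold 5.64 over the high pool, 4.82 to 6.62) and held 64.0% of the sorted reads. Of 10 sgRNAs 1 lay above 1 and 5 below -1, and the lowest, sgRNA 6, had 0 sorted reads against 234 in the high pool. The RSA p for enrichment was 0.0526, given by 4 sgRNAs (rank 2942, 0.363 after adjustment). The RSA p for depletion was 0.0344, given by 2 other sgRNAs (rank 3505, 0.199 after adjustment). Both had 0 sorted reads, so this p was set by their high-pool reads and the pseudocount.

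The 8 member sgRNAs above 1 (2 each of STAT2, IRF9 and TMEM173 and 1 each of IRF3 and ADAR) held 7347 of the 11412 sorted reads of the 10 genes, or 64.4%. The same 8 held 10.3% of the members' reads in the high pool and 7.59% in the low pool. The other 85 member sgRNAs summed to 119 CPM in the sorted library, 344 CPM in the high pool and 398 CPM in the low pool. These 8 were picked by their sorted reads, so the shares are a description. Summed over sgRNAs, 4 genes had log2 ratios above 0 in sorted over high pool, STAT2 (1.35), ADAR (0.38), IRF9 (0.21) and TMEM173 (0.01), whereas all 10 medians were below 0.

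Set against the low pool, which shares the sorted library with the comparison above and adds the differences between the screens, 7 of 89 member sgRNAs lay above 1 (7.87%, exact interval 3.22 to 15.5%), against 13.2% of all gene-targeting sgRNAs. Below -1 lay 63 (70.8%, 60.2 to 79.9%), against 71.5%. Calls made up 0.37% of 20295 genes for enrichment and 0.586% for depletion, against 0 of 10 members in each direction. The median over the gene medians was -6.50, against -5.62 over all genes, with values from -8.19 (IFNAR2) to -3.04 (STAT2) that again rest partly on sgRNAs with 0 sorted reads. TMEM173 had the smallest RSA p for enrichment, 0.0199 (rank 1362, 0.296 after adjustment), with 3 of 10 sgRNAs above 1. One of these was sgRNA 5, with 295 reads in the sorted library, 278 in the high pool and 116 in the low pool. IFNAR1 and IFNAR2 had RSA p-values for depletion of 0.0198 and 0.0264, or 0.181 and 0.193 after adjustment, with 9 of 10 and 3 of 4 sgRNAs below -1. Both p-values were given by sgRNAs with 0 sorted reads, whose order is set by their low-pool reads and the pseudocount.

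The unsorted pools were compared to show how far the members' sgRNAs differed without a sort. The pools come from screens that differ in IFN-γ dose and days, and whether the pools themselves differed in these is not given, so such differences cannot be told apart from others between the screens. Of 92 member sgRNAs with at least 10 reads in either pool, 14 lay above 1 in high over low pool (15.2%, exact interval 8.58 to 24.2%), against 22.6% of all gene-targeting sgRNAs. Below -1 lay 32 (34.8%, 25.1 to 45.4%), against 23.7% of all gene-targeting sgRNAs and 25.2% of safe-targeting sgRNAs. Of the 6 member shares, this was the only one above its background under total-read scaling, though the interval treats sgRNAs as independent and those of 1 gene share their target. Calls made up 0.821% of 20341 genes for enrichment and 0.733% for depletion, against 0 of 10 members in each direction. RSA p-values below 0.05 were found for 20.2% of genes for enrichment and 20.0% for depletion, and for 1 and 3 of the members. The median over the gene medians was -0.10, against -0.02 over all genes.

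IFNAR1 and IRF9 stood lowest in the pools. IFNAR1 had a median of -1.41, with 6 of 10 sgRNAs below -1 and 0 above 1, and 1.67% of all genes had a lower median. Its RSA p for depletion was 0.00397 (rank 650 of 20341), or 0.124 after adjustment. sgRNA 8, its most extreme, was not listed in the high pool and had 571 reads in the low pool, and sgRNA 7 had 3 and 256. IRF9 had a median of -1.17, with 5 of 10 below -1 and 2 above 1, and 3.01% of genes had a lower median. Its RSA p for depletion, 0.00253, was the smallest of the 10 in any comparison and direction, and was given by 8 sgRNAs (rank 467, 0.110 after adjustment). Both therefore missed the RSA p of 0.001 used for calls. In CPM, IFNAR1 summed to 26.5 in the high pool and 55.2 in the low pool, and IRF9 to 23.3 in the high pool and 34.5 in the low pool.

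The other 8 genes had medians nearer 0. The highest medians were those of IFNAR2 (0.49) and STAT2 (0.33). TYK2 was at -0.14. MB21D1 was at 0.32, but at -0.06 with a minimum of 50 reads and at -0.0024 for summed reads. IRF3 was at -0.17 and MAVS at -0.25. TMEM173 at -0.06 and ADAR at -0.07 were so close to 0 that their sign changed under both other scalings of the reads. TMEM173 had an RSA p for depletion of 0.0203, given by 2 sgRNAs: sgRNA 7 had 2 reads in the high pool and 406 in the low pool, and sgRNA 10 had 4 and 592. STAT2 had an RSA p for enrichment of 0.0388, given by sgRNA 1, which had 121 reads in the high pool and 0 in the low pool and so was at least 176-fold higher. STAT2 sgRNA 2, MB21D1 sgRNA 10 and MAVS sgRNA 9 were likewise not listed in the low pool, with 6, 12 and 11 reads in the high pool. These sgRNAs were singled out after their values were seen.

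**Figure D3:**
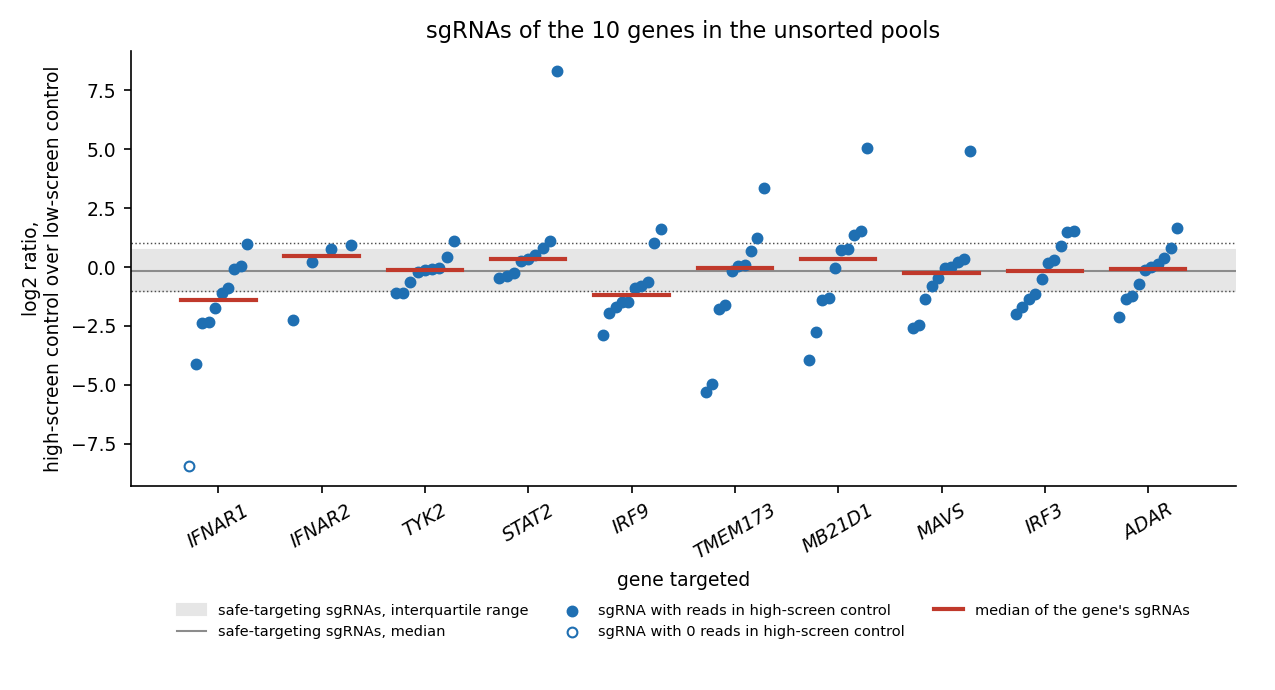
Log2 ratio of each member sgRNA in the high-screen control over the low-screen control (vertical axis), by gene, with gene medians in red and the interquartile range and median of safe-targeting sgRNAs in grey. The medians lie close to 0 apart from IFNAR1 (-1.41) and IRF9 (-1.17), and the points farthest from 0 are sgRNAs with few or 0 reads in 1 of the pools.

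The rest of the pathway was described by 10 lists of 78 genes taken from general knowledge, of which 77 could be matched (TLR9 stands under 2 identifiers in the library and was left out). In sorted over high pool 3 of the 77 were called enriched, against 0.31% of all genes, and 0 depleted, and the median of the 77 was -4.21. The lists were drawn up with earlier results of these data known, SOCS1 among them, so the count is a description. The 3 were TBK1, LRRC8A and SOCS1. TBK1, the kinase that phosphorylates IRF3 below both STING and MAVS, summed to 848 CPM in the sorted library, 53.6 CPM in the high pool and 47.0 CPM in the low pool. It had a median log2 ratio of 2.02 over the high pool, with 6 of 10 sgRNAs above 1 and 3 below -1, and 1 sgRNA held 81.5% of its sorted reads. The RSA p of TBK1 was 1.84e-05, or 0.0267 after adjustment. Against the low pool its median was 0.76 and it was not called, since its RSA p of 0.000487 came from 1 sgRNA. LRRC8A, a subunit of the volume-regulated anion channel that can carry cyclic dinucleotides, summed to 291 CPM in the sorted library, 75.0 CPM in the high pool and 64.6 CPM in the low pool. Its median was 1.13 over the high pool and 1.73 over the low pool, and it was called enriched in both. The RSA p after adjustment was 0.0187 over the high pool and 0.120 over the low pool, and 1 sgRNA held 52.8% of the sorted reads of LRRC8A. LRRC8A was the highest of the 6 genes listed for cyclic dinucleotide transport. Over the high pool these ran from -5.11 to 1.13 with a median of -2.81, and no other was called. SOCS1, listed among the feedback inhibitors of the type I receptor and an inhibitor of the IFN-γ receptor too, had 9 of 10 sgRNAs above 1 in both comparisons and was called in both. These 2 were the only genes of the lists called in sorted over low pool.

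None of the 13 RNA sensors and adaptors or the 5 DNA sensors was called in the sort. The RNA list ran from -5.97 for ZBP1, a sensor of Z-form nucleic acid, to -0.67 for IFIH1, which encodes the double-stranded RNA receptor MDA5. The 17 type I interferon ligands ran from -6.53 (IFNW1) to 1.63 (IFNA14), with 0 called. The IFNA genes among them are near-copies of each other, and multi-aligning reads had been removed. Values of the IFNA genes are thus uncertain, and IFNA1 and IFNA13 had only 1 and 2 sgRNAs tested. The 5 double-stranded RNA effectors had a median of -1.81 and ran from -2.90 (OAS3) to -1.45 (OAS1), both of which make the activator of RNase L, with 0 called. The 5 genes listed for the IFN-γ receptor arm had a median of -6.30, against -4.54 over all genes, with 0 called. They ran from -7.23 for the transcription factor IRF1 to 1.06 for JAK1, the kinase shared by both receptors, which had 5 of 9 sgRNAs above 1 and 4 below -1. Where the middle sgRNAs had 0 sorted reads, such a median is set by the pseudocount and the high-pool reads. Summed over sgRNAs, IRF1 had 60.9 CPM in the sorted library and 57.7 CPM in the high pool, with 91.3% of its sorted reads in 1 sgRNA. JAK1 also summed higher in the sorted library, and the other genes of this list lower. The 2 subunits of the type III interferon receptor, IFNLR1 and IL10RB, had -5.48 and -3.97. The 8 nucleases and hydrolases that limit the ligands of the sensors had a median of -4.42, with 0 called.

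**Figure D4:**
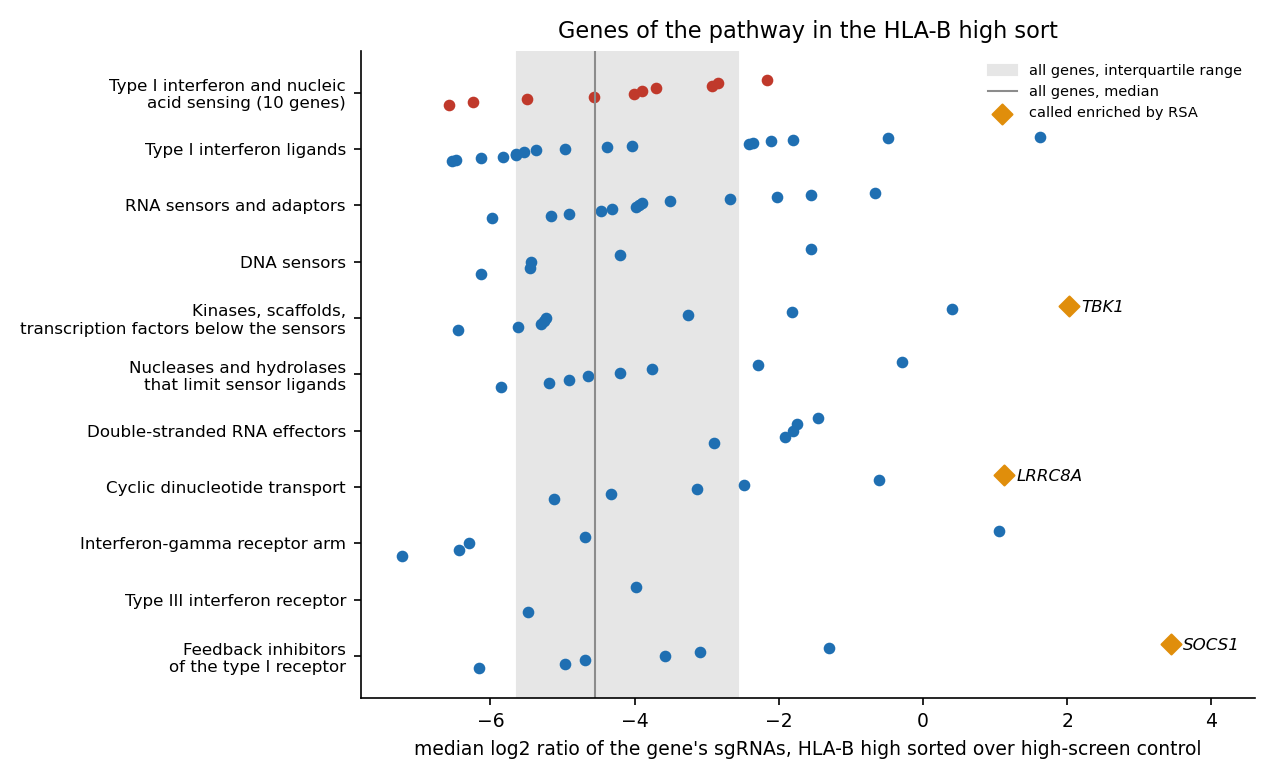
Median log2 ratio of each gene's sgRNAs in HLA-B high sorted over high-screen control (horizontal axis), by pathway list, with the 10 genes in red. The grey band and line are the interquartile range and median of all genes, and orange diamonds mark genes called enriched by RSA, which are TBK1 (2.02), LRRC8A (1.13) and SOCS1 (3.44).

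In the unsorted pools 1 of the 77 was called enriched and 1 depleted, counts near the shares of all genes called (0.821% and 0.733%), so they are no result about the lists. The called genes are given by their values. POLR3A, the large subunit of RNA polymerase III, which can copy DNA into RNA that is then sensed, had a median of 2.27 in high over low pool with 7 of 10 sgRNAs above 1. RNASEH2A, the catalytic subunit of the enzyme that removes ribonucleotides from DNA, had a median of -1.76 with 6 of 9 sgRNAs below -1. Over the 77 genes the median was -0.14. No member of the receptor arm or of the sensing and editing genes was among the calls.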

How the data were processed

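The 3 libraries are sgRNA reads amplified from genomic DNA, 1 library per group. The authors deposited raw read counts per sgRNA with no normalization. By the methods, the vector part of the reads was clipped off (fastx clipper or cutadapt), Bowtie2 matched the remainder to the sgRNA library, and multi-aligning reads were dropped before counting. Notes of the submitters on processing also name bcl2fastq, and versions are not given in the sources used here. Reads matched to no sgRNA (21.9% of the sorted library, 20.6% of the high-screen control, 12.1% of the low-screen control) were left out, and an sgRNA not listed in a library was given 0 reads.

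Counts were scaled to total matched reads, and log2 ratios were computed with a pseudocount of 1 read at the mean depth of both libraries. An sgRNA was kept with at least 10 reads in the control library, or in either pool when the pools were compared. RSA, the method named by the study, was run from each end over all sgRNAs and genes and considered only ranks with ratios on the side tested, ties taking the worst rank. Because RSA takes a minimum over ranks, its p is not calibrated and the Benjamini-Hochberg values based on it are lenient. The p measures how closely the sgRNAs of a gene lie together within these libraries. Shares and folds have exact Clopper-Pearson 95% intervals. Those of shares are over numbers of sgRNAs and treat these as independent. Those of folds cover the counting error of reads only, as does the limit of 3 reads for a count of 0. Folds given as at least a value use that limit and leave out the counting error of the other library. The ranking step was tested on simulated data. Python 3.11.15, numpy 2.4.6, pandas 2.3.3, scipy 1.17.1 and matplotlib 3.10.9 were used, and positions are from GENCODE release 44 lifted to GRCh37, matched by gene identifier.

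The members and lists were chosen with earlier results of these data known. Named were all 10 members, the highest and lowest sgRNA of each in the main comparison and any holding most of a gene's sorted reads, and of the other pathway genes those called in any comparison, or else the ends of each list. Alternatives varied the minimum, the pseudocount, the scaling and the RSA rule. The sgRNA sequences were not used here. The K562 label could not be checked against expressed markers. A gene of the pathway lists is not reported here.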

Additional observations from a re-analysis of the deposited data

Results flagged for a closer look

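MB21D1 sgRNA 4 had a few reads in the sorted library although the minimum of 10 reads kept it out of the comparison with the high-screen control. It had 6 reads in the sorted library (0.175 CPM), 1 in the high-screen control (0.0443 CPM) and 91 in the low-screen control (0.925 CPM). The sorted level lies above the limit of 0.0875 CPM that a count of 0 allows in that library. The other 7 member sgRNAs below the minimum had 0 sorted reads.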

How the results depend on the processing

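The 10 genes had 0 calls in each comparison and direction under each of the 8 alternatives run on the calls (2 other read minimums, a pseudocount of 5, 2 other scalings and 3 other RSA rules). Of the shares of member sgRNAs beyond 1 or -1, 1 moved out of its interval: scaled by the median of ratios over sgRNAs listed in both libraries, 20.0% of member sgRNAs lay above 1 in sorted over high-screen control, against 17.0% of all gene-targeting sgRNAs under the same scaling. That scaling raised the median over all genes by 0.35 (log2) in this comparison and by 0.20 in sorted over low-screen control, and scaling to safe-targeting reads raised it by 0.12 to 0.13 in all 3 comparisons. Of 180 alternative values for the gene medians, 169 stayed within 1 SD of the gene's sgRNAs and 11 did not, all of them from reads summed over sgRNAs in the sort. In the unsorted pools the medians of TMEM173 and ADAR changed sign under both other scalings, that of MB21D1 with a minimum of 50 reads (-0.06), and those of TMEM173 (0.04) and MB21D1 (-0.0024) for summed reads. In the sort the order of the gene medians changed with the minimum and the pseudocount. No paired analysis was possible because each group is 1 library and no test across samples was run. At a median of 74.0 reads per member sgRNA in the high-screen control, against 426 in the low-screen control, small differences of single sgRNAs were not detectable.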
